A study of Mus musculus with 28 samples.

Results

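The 4 edited clones compared here were 2 Tet2-Mut and 2 Tet2-KO clones of mouse embryonic stem cells (ESCs), pooled as one side against 3 Tet2-WT cultures. They are 4 of the 28 samples of the series and 4 of its 7 RNA-seq libraries, and are the libraries whose label gives a Tet2-Mut or Tet2-KO genotype. All 7 libraries came from V6.5, a male line of mixed 129/C57BL/6 strain, kept in serum with the self-renewal factor LIF. The cells had been grown on feeder fibroblasts, freed of most of them by pre-plating and left on gelatin overnight before RNA was taken. The Tet2-WT side is described as independent ESCs and the other side as clones. Whether the Tet2-WT cultures were themselves cloned is not stated, so an effect of the Tet2 genotype and an effect of cloning cannot be told apart. What was changed in the Tet2-Mut allele is not stated. The study's stated interest is in what Tet2 does without its catalytic activity.

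Tet2 belongs to the family of TET dioxygenases, which oxidize 5-methylcytosine, mostly at CpG dinucleotides, as a step towards the removal of DNA methylation. In ESCs, Tet1 and Tet2 are the abundant members. TET proteins also bind partners that act on chromatin, among them the glycosyltransferase Ogt and the Sin3a corepressor complex, so that a clone without the protein can lack more than a clone with an altered one.

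The Tet2 transcript itself separated the clones. Tet2 normalized counts, which are gene counts divided by the library's size factor, were 10343, 10244 and 12074 in the Tet2-WT cultures. They were 9992 and 13181 in Tet2-Mut 1 and 2, and 4624 and 5206 in Tet2-KO 1 and 2. Tet2-Mut 1 lay just below the lowest Tet2-WT culture and Tet2-Mut 2 above the highest, while both Tet2-KO clones lay far below, so the 4 clones are called here by their genotypes rather than Tet2-deficient. The level of the Tet2 protein was not measured in these files. Over the 4 clones the log2 difference of Tet2 from Tet2-WT was -0.53 (SE 0.34, limma adjusted p = 0.464), and Tet2-KO stood 1.23 below Tet2-Mut (log2 difference -1.23, limma adjusted p = 0.00382).

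The libraries held 41.9 M to 58.5 M recovered gene reads. ESC identity was checked with 8 markers, including Pou5f1, Nanog, Sox2 and Zfp42. For none of these 8 was the highest library more than 1.48 times the lowest, and Pou5f1 normalized counts ran from 52319 to 72697. The clone mean was above that of Tet2-WT in Pou5f1, Zfp42, Dppa5a and Utf1. It was below it in Nanog, Sox2, Esrrb and Tdgf1. In Esrrb (means of 35170 in Tet2-WT and 29838 in the clones) and Tdgf1 (54868 and 44034) every clone was below the Tet2-WT range. Fibroblast markers were present in every library: 26 of the 29 listed were tested, and their summed level was 11250 to 11800 in Tet2-WT and 10550 to 32320 in the clones. In bulk RNA, fewer cells of a type and less RNA per cell cannot be told apart. The clones differed more among themselves than the Tet2-WT cultures did. The median SD per gene on the log2 scale was 0.19 for the 4 clones and 0.09 for the 3 Tet2-WT cultures. The SD of the 4 clones also holds the difference between the genotypes. Within a genotype the median was 0.13 for the 2 Tet2-Mut clones and 0.12 for the 2 Tet2-KO clones. A median SD also depends on the number of libraries. Chromosome medians were taken over genes with a known chromosome and a mean of at least 50 on the higher side. Chromosome 8 differed between the genotypes. Its genes had a median log2 difference from Tet2-WT of 0.29 and 0.28 in Tet2-Mut 1 and 2, and of -0.28 and -0.24 in Tet2-KO 1 and 2. Chromosome 14 stood at 0.51 in Tet2-Mut 2 alone. The Y-linked gene Ddx3y was at 5.79 and 43.4 normalized counts in Tet2-Mut 2 and Tet2-KO 1 against 595 to 661 in Tet2-WT. Over 4 Y-linked genes the median log2 difference from Tet2-WT was -6.76 in Tet2-Mut 2 and -3.4 in Tet2-KO 1. It was 2.37 in Tet2-Mut 1 and 1.32 in Tet2-KO 2, so these clones lay above Tet2-WT. The part of these shifts in the results was not tested; the counts of genes past a test were repeated without chromosomes 8, 14 and Y.

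**Figure D1:**
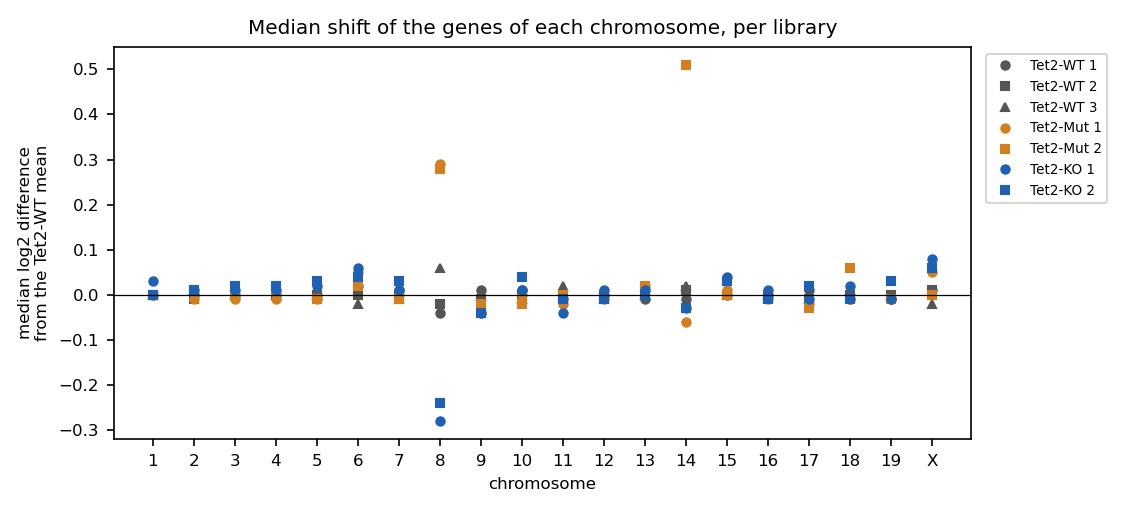
Median log2 difference from the Tet2-WT mean (y axis) of the genes of each autosome and the X chromosome (x axis), one point per library. Genes had a mean of at least 50 on the higher side. Chromosome 8 is at 0.29 and 0.28 in the Tet2-Mut clones and at -0.28 and -0.24 in the Tet2-KO clones, and chromosome 14 is at 0.51 in Tet2-Mut 2.

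With 4 clones on one side and 3 Tet2-WT cultures on the other, 4 genes of 17338 passed the test (limma on log2 of the normalized count plus 1, Benjamini-Hochberg adjusted p under 0.05), which is 0.0231% of the genes tested. Tns1 and Tuba3a fell in the clones, and Insm1 and Cdk2ap1 rose, 0.0115% of the genes tested in each direction. In this fit the spread of the clone side also holds the difference between Tet2-Mut and Tet2-KO, so a gene passes only where the clones of both genotypes lie close together and far from Tet2-WT. The bases just upstream of the RefSeq start sites (GRCm38.p6) are shown first for the 3 of these 4 genes with an entry in the promoter table. Smc1b, a germline gene described below, is added for comparison. CpG dinucleotides, the positions at which methylation is written and at which Tet2 acts, are in capitals. Each run is the 250 bases before the start site, read 5′ to 3′ on the gene's strand, which is the minus strand for all 4: chr1:74124549-74124798 for Tns1, chr6:125286082-125286331 for Tuba3a, chr5:124354629-124354878 for Cdk2ap1 and chr15:85131958-85132207 for Smc1b.
Tns1: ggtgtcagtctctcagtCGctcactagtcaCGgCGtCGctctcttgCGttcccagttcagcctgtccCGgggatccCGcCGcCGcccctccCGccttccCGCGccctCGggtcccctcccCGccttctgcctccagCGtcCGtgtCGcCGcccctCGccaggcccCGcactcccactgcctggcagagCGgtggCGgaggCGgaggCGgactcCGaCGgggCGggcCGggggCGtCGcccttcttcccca
Tuba3a: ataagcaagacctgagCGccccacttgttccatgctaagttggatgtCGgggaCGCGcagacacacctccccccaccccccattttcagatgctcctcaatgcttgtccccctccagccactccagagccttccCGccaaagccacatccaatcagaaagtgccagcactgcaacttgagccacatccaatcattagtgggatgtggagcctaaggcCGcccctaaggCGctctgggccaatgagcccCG
Cdk2ap1: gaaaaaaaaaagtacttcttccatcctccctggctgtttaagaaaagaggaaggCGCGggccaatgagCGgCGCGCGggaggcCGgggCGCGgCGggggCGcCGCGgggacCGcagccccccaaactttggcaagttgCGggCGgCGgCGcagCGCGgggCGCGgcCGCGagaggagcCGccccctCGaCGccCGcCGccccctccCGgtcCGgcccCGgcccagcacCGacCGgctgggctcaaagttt
Smc1b: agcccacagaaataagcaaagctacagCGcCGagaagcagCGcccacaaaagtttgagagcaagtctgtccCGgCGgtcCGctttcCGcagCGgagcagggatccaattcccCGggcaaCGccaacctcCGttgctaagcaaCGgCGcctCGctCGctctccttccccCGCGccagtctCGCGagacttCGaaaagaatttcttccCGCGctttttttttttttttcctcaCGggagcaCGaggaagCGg
These windows held 30 CpGs for Tns1, 8 for Tuba3a, 34 for Cdk2ap1 and 25 for Smc1b, against a median of 15 (quartiles 8 and 22) over the 12101 tested genes with a promoter entry. A wider set, all 32851 promoter windows including those of genes not tested, had a median of 6 CpGs (quartiles 2 and 16). Of that set, 94.1% had fewer CpGs than the window of Tns1, which fell. The share was 96.5% for Cdk2ap1, which rose, and 57.0% for Tuba3a, which fell. Among the tested genes, the 8 CpGs of Tuba3a equal the lower quartile. No methylation values were used here, so whether these CpGs were methylated was not tested.

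Tns1 encodes tensin 1, which links actin filaments to integrins at focal adhesions, and lies on chromosome 1 at 73910232 to 74124548 (GRCm38.p6). Its normalized counts were 879, 724 and 771 in Tet2-WT, 321 and 342 in Tet2-Mut, and 321 and 308 in Tet2-KO. The 4 clones lay close together and all below the lowest Tet2-WT culture. The mean was 791 ± 79.4 (SD, n = 3) in Tet2-WT and 323 ± 13.8 (SD, n = 4) in the clones, a log2 difference of -1.29 (SE 0.11, limma adjusted p = 0.0264).

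Tuba3a encodes an alpha-tubulin that is abundant in testis, and lies on chromosome 6 at 125278270 to 125286081. It has a near-identical copy, Tuba3b, so the authors' counting could have split or lost reads of this gene and its level is uncertain. Its normalized counts were 771, 629 and 779 in Tet2-WT, 356 and 279.8 in Tet2-Mut, and 301 and 308 in Tet2-KO. Again the clones of both genotypes were interleaved and none reached the lowest Tet2-WT value. The log2 difference was -1.22 (SE 0.13, limma adjusted p = 0.0425).

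Insm1 encodes a zinc-finger repressor needed for neuroendocrine and neuronal progenitor differentiation, and lies on chromosome 2 at 146221997 to 146225020. Its normalized counts were 209.7, 185 and 208 in Tet2-WT, 500.5 and 633 in Tet2-Mut, and 541 and 447 in Tet2-KO. Every clone was more than double the highest Tet2-WT culture. The log2 difference was 1.39 (SE 0.15, limma adjusted p = 0.0425).

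Cdk2ap1 encodes a small Cdk2-binding protein that is also a subunit of the NuRD chromatin remodelling complex, and lies on chromosome 5 at 124345439 to 124354628. Its normalized counts were 3816, 3932 and 4363 in Tet2-WT, 5949 and 6027 in Tet2-Mut, and 6425 and 6279 in Tet2-KO. The rise was smaller than that of Insm1 but tight, with a log2 difference of 0.61 (SE 0.07, limma adjusted p = 0.0425). The nearest gene outside the threshold was Apela, which encodes a secreted peptide of ESCs, at 657, 671 and 718 in Tet2-WT, 1075 and 1263 in Tet2-Mut, and 1251 and 1157 in Tet2-KO (log2 difference 0.80, limma adjusted p = 0.0555).

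For these 4 genes Tet2-KO and Tet2-Mut were not told apart, with limma adjusted p of 0.827 for Tns1, 0.908 for Tuba3a, 0.614 for Insm1 and 0.621 for Cdk2ap1. That does not show that the genotypes act alike. edgeR, run on the recovered reads, called the same 4 genes. The calls did not survive the loss of any Tet2-WT culture: without Tet2-WT 1, 2 or 3 the count was 0 in limma, with 1551, 1817 and 2207 genes at an unadjusted p under 0.05. Without Tet2-Mut 1 it was 2 genes, Meg3 and Rian, neither of them among the 4, and without Tet2-KO 1 it was 5 genes, Tns1, Car2, Mid1, Lgals3 and Sorl1. Without Tet2-Mut 2 the count was 366, without Tet2-KO 2 it was 92, and without chromosomes 8, 14 and Y it was 20.

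**Figure D2:**
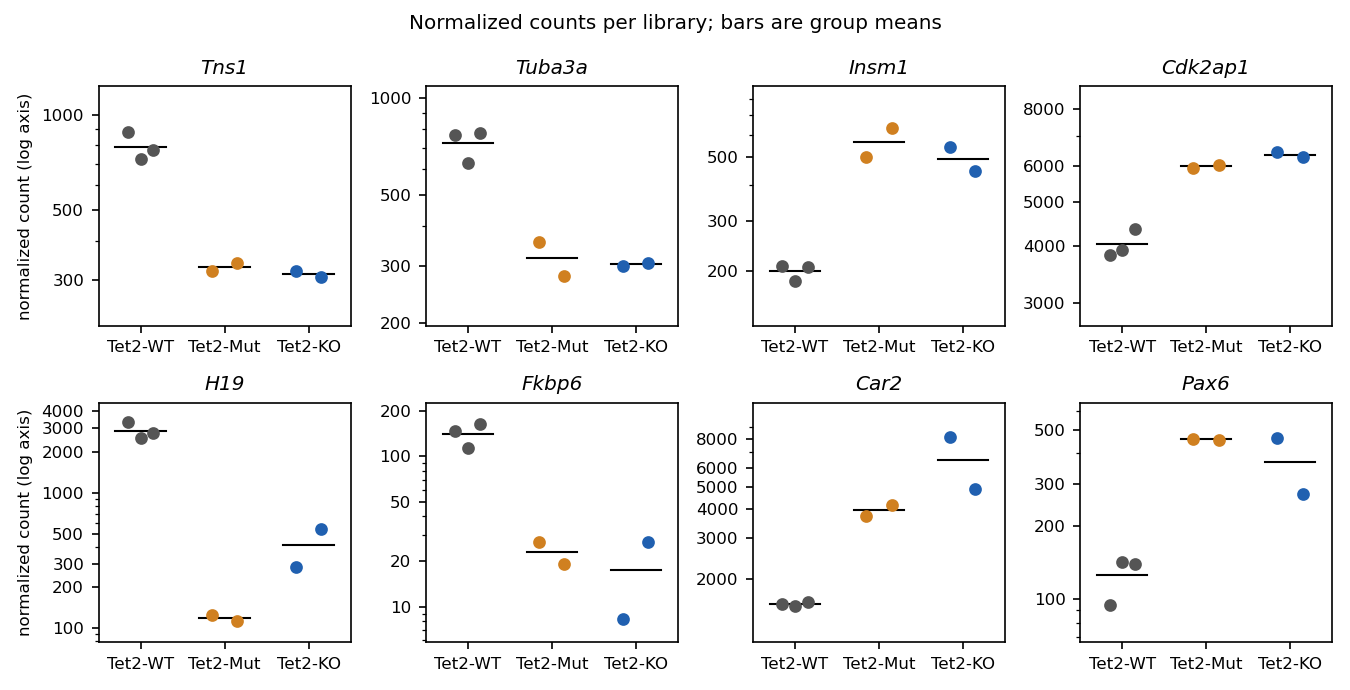
Normalized counts of 8 genes (y axes, log scale) in each library, by genotype (x axis), with bars at the group means. For Tns1, Tuba3a, Insm1 and Cdk2ap1 the clones of both genotypes sit together and apart from Tet2-WT, and for H19 the Tet2-Mut clones lie below the Tet2-KO clones.

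A broader view came from asking which genes had all 4 clones outside the Tet2-WT range. This held for 3076 genes, 17.7% of those tested, with 1531 higher in the clones (8.83%) and 1545 lower (8.91%). At an unadjusted p under 0.05 there were 2855 genes (16.5%). Most of these shifts were small. In 73 genes (0.421%) every clone was at least 2-fold above the Tet2-WT mean, and in 66 (0.381%) every clone was at least 2-fold below it.

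The count of genes past a test depended on how the genotypes were handled. When Tet2-Mut and Tet2-KO kept separate means and their average was set against Tet2-WT, limma gave 692 genes (3.99%), 298 higher (1.72%) and 394 lower (2.27%). Of these, 625 also had no overlap (3.60%), 261 higher (1.51%) and 364 lower (2.10%). This second fit leaves the difference between genotypes out of the spread, so a gene can pass it although the genotypes differ in size. It too hung on the Tet2-WT cultures. Without Tet2-WT 1 or Tet2-WT 2 only H19 passed, and without Tet2-WT 3 there were 5 genes, H19, Rhox6, Rhox9, Cdk2ap1 and Mycn. Without Tet2-Mut 1 it gave 1861 genes, without Tet2-Mut 2 it gave 1209, without Tet2-KO 1 it gave 257 and without Tet2-KO 2 it gave 1327. DESeq2 with the 2 pooled sides called 1053 genes, including the 4 above. The genes described from here on did not pass the pooled test unless stated, and their values are given as a description. An adjusted p named "with separate genotype means" is from the second fit. For some genes the pooled test is also given with 1 clone left out. Over all genes its count rose to 366 without Tet2-Mut 2 and to 92 without Tet2-KO 2. Without Tet2-Mut 1 or Tet2-KO 1 only the 2 and 5 genes named above passed it. Without any 1 Tet2-WT culture 0 genes passed.

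**Figure D3:**
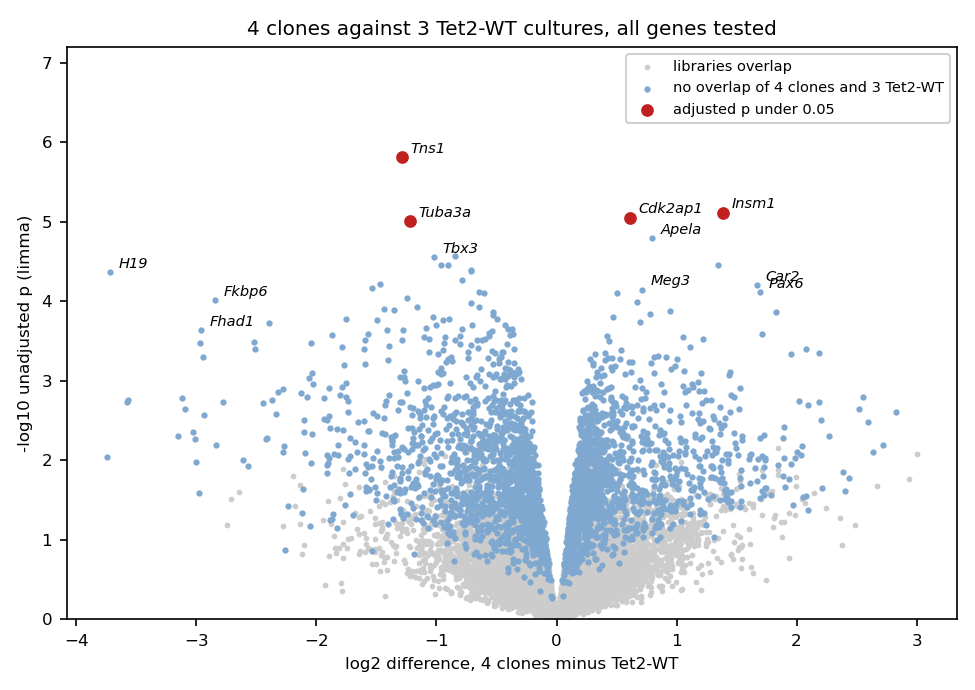
Each point is 1 of 17338 genes, with the log2 difference of the 4 clones from Tet2-WT on the x axis and -log10 of the unadjusted limma p on the y axis. Red points are the 4 genes past the test, and blue points are the 3076 genes in which all 4 clones lie outside the Tet2-WT range.

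The genes with the widest gap between Tet2-WT and the nearest clone were ranked, 20 in each direction, among those with a mean of at least 50 on the higher side. At the top of the lower genes were Fhad1 and H19. H19 is an imprinted long non-coding RNA expressed from the maternal copy, on chromosome 7 at 142575530 to 142578146. Its normalized counts were 3330.5, 2534 and 2752 in Tet2-WT, 126 and 112 in Tet2-Mut, and 285 and 542 in Tet2-KO. No clone came near the Tet2-WT range, and the Tet2-Mut clones were the lowest. The log2 difference was -3.72 (SE 0.49, limma adjusted p = 0.0579, and 0.00033 with separate genotype means). Tet2-KO stood 1.72 above Tet2-Mut on the log2 scale (limma adjusted p = 0.00788), a difference that is part of the pooled spread for this gene. The pooled test called H19 without Tet2-Mut 2 (limma adjusted p = 0.0198) or without Tet2-KO 2 (0.0194). It did not call H19 without Tet2-Mut 1, Tet2-KO 1 or any 1 of the Tet2-WT cultures.

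Others of the ranked lower genes follow. Pygl, liver glycogen phosphorylase, was at 592, 285 and 267 in Tet2-WT, 91.7 and 36.7 in Tet2-Mut, and 68.1 and 86.9 in Tet2-KO (log2 difference -2.40). Grin1, the obligatory subunit of NMDA-type glutamate receptors, was at 1911, 1304 and 1176 in Tet2-WT, 302 and 96.5 in Tet2-Mut, and 92.9 and 402 in Tet2-KO (log2 difference -2.97). Its antisense neighbour Grin1os had the same order of libraries; without a known strand setting, the reads of these overlapping genes cannot be told apart. Aire, known for driving tissue antigens in the thymus, overlaps Dnmt3l and was at 5265, 4599 and 3544 in Tet2-WT, 949 and 297 in Tet2-Mut, and 889 and 1421 in Tet2-KO. Cdc42ep2, a Cdc42 effector, was at 313, 280.5 and 219.5 in Tet2-WT and at 33.0, 25.1, 51.6 and 103 in Tet2-Mut 1, Tet2-Mut 2, Tet2-KO 1 and Tet2-KO 2 (limma adjusted p = 0.0726).

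The clones were not equally low in these genes. In 12 of the 20 ranked lower genes the lowest clones were Tet2-Mut 2 and Tet2-KO 1, against 30.5% of the 1545 genes that were lower without overlap. Those are also the clones with little Ddx3y. Ndufa4l2, a mitochondrial protein known as a hypoxia target, was at 374 and 404 in Tet2-Mut 1 and Tet2-KO 2 but at 41.5 and 63.0 in Tet2-Mut 2 and Tet2-KO 1, with Tet2-WT at 1698, 1127 and 821. A2m, a protease inhibitor of plasma, showed the same order, at 146 and 205 against 3.86 and 39.2, with Tet2-WT at 850, 720.2 and 471. Its log2 difference of -3.74 carried an SE of 1.12. Besides H19, the pooled limma test without Tet2-Mut 2 called Fhad1, Pygl, Grin1, Aire, Cdc42ep2 and A2m of the lower genes above. Without Tet2-KO 2 it called Grin1, Aire and Cdc42ep2.

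Among the ranked higher genes, the best expressed was Car2, carbonic anhydrase 2, on chromosome 3 at 14886269 to 14900770. Its normalized counts were 1563, 1534 and 1594 in Tet2-WT, 3723 and 4181 in Tet2-Mut, and 8191 and 4860 in Tet2-KO. The lowest clone was more than double the highest Tet2-WT culture, and Tet2-KO 1 stood above the other 3 clones. The log2 difference was 1.67 (SE 0.23, limma adjusted p = 0.0626, and 0.00586 with separate genotype means). The pooled limma test called Car2 without Tet2-KO 1 (adjusted p of 0.014), Tet2-Mut 2 (0.0233) or Tet2-KO 2 (0.0494). It did not call Car2 without Tet2-Mut 1 or without any 1 of the Tet2-WT cultures.

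Pax6, a master regulator of eye and forebrain development, was at 94.9, 143 and 139 in Tet2-WT, 458 and 456 in Tet2-Mut, and 463 and 271 in Tet2-KO. Tet2-KO 2 was the lowest clone and still above every Tet2-WT culture, and the log2 difference was 1.70 (SE 0.24, limma adjusted p = 0.0626, with 0.0308 without Tet2-Mut 2 and 0.0252 without Tet2-KO 2). Slitrk5, a transmembrane protein of neurons, was at 36.6, 54.6 and 44.9 in Tet2-WT and at 152, 133, 228 and 108 in Tet2-Mut 1, Tet2-Mut 2, Tet2-KO 1 and Tet2-KO 2. Inhba, which encodes the activin A subunit, was at 139.8, 145 and 158 in Tet2-WT and at 293, 297, 743 and 325 in the clones in the same order. Tet2-KO 1 was the highest clone in 14 of the 20 ranked higher genes, and in 45.3% of the 1531 genes that were higher without overlap. With separate genotype means, 14 of the 20 higher and 17 of the 20 lower ranked genes passed the limma test. Over all genes the share was 3.99%. The genes were ranked on the same values, so a high share follows in part from how they were chosen. Tet2-KO differed from Tet2-Mut in H19 and Fat2 of the lower genes and in 0 of the higher ones, against 6.19% of all genes.

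**Figure D4:**
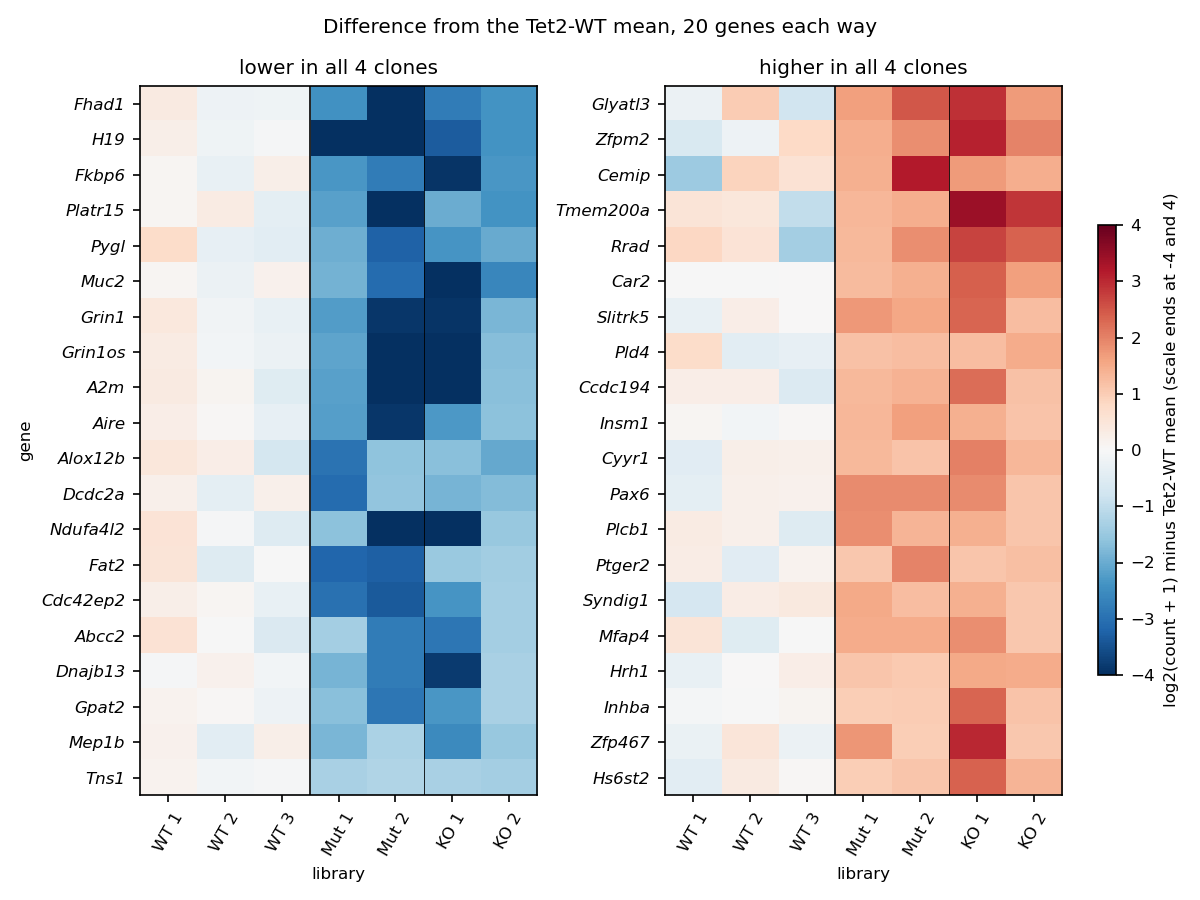
Difference of each library from the Tet2-WT mean (colour, log2 of the normalized count plus 1) for the 20 genes each way with the widest gap between Tet2-WT and the nearest clone, genes as rows and libraries as columns. Tet2-Mut 2 and Tet2-KO 1 are the lowest clones in 12 of the 20 lower genes, and Tet2-KO 1 is the highest in 14 of the 20 higher genes.

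Gene groups were read from 29 lists, of which 527 different genes were tested and 2, Insm1 and Tuba3a, passed the pooled test. Germline genes that DNA methylation is known to silence were lower more often than higher: 9 of 36 were below the Tet2-WT range in all 4 clones and 2 were above it (25% and 5.56%, against 8.91% and 8.83% of all genes). The list's median log2 difference was -0.27, against 0.00 over all genes tested. Tuba3a was the only member past the pooled test. Fkbp6, a cochaperone of meiosis and of the piRNA pathway, was at 146, 113 and 163 in Tet2-WT, 26.8 and 19.3 in Tet2-Mut, and 8.26 and 26.9 in Tet2-KO (log2 difference -2.84, limma adjusted p = 0.0694). Smc1b, a meiotic cohesin whose upstream window is printed above, was at 741, 477 and 421 in Tet2-WT, 164 and 59.8 in Tet2-Mut, and 148 and 245 in Tet2-KO (log2 difference -1.94). Gpat2, an acyltransferase of the piRNA pathway, was at 376, 350.2 and 296 in Tet2-WT, 105 and 44.4 in Tet2-Mut, and 67.1 and 139 in Tet2-KO. Fkbp6 and Gpat2 passed the pooled limma test without Tet2-Mut 2 (adjusted p of 0.0308 and 0.0289) and without Tet2-KO 2 (0.0456 and 0.0407).

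The germline list did not move as a block. Stag3, another meiotic cohesin, was lower by less, at 3262, 2951 and 2881 in Tet2-WT, 2487 and 2352 in Tet2-Mut, and 1796 and 1674 in Tet2-KO (log2 difference -0.56). Tdrd1, a Tudor protein of the piRNA pathway, was higher in every clone, at 166, 137 and 146 in Tet2-WT and at 346, 205, 268 and 173 in Tet2-Mut 1, Tet2-Mut 2, Tet2-KO 1 and Tet2-KO 2. Over the whole list, the median of Tet2-Mut 1 was 0.05 and that of Tet2-KO 2 was -0.56.

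Homeobox genes of the X-linked Rhox cluster, also known as methylation-sensitive, had a negative pooled log2 difference in all 5 tested. In 4 of the 5 every clone was below the Tet2-WT range (80%, against 8.91% of all genes). Rhox6 was at 1165, 1226 and 888 in Tet2-WT, 189 and 137 in Tet2-Mut, and 504 and 669 in Tet2-KO (log2 difference -1.82, limma adjusted p = 0.146). Rhox5 was at 7913, 7544 and 6111 in Tet2-WT, 2273 and 1516 in Tet2-Mut, and 4947 and 5822 in Tet2-KO. In the 2 genes the 4 clones had the same order, with Tet2-Mut lowest and Tet2-KO 2 nearest to Tet2-WT. The difference between genotypes passed the test for Rhox6 (log2 difference, Tet2-KO minus Tet2-Mut, 1.84, limma adjusted p = 0.00417), as for H19.

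Of 25 glycolysis and hypoxia genes, all 4 clones were below the Tet2-WT range in 10 and above it in 0 (40% and 0%, against 8.91% and 8.83% of all genes). The pooled log2 difference was negative in 24 of the 25, with a median of -0.39. Limma called 0 of the 25, and 10 were at an unadjusted p under 0.05, all lower. Of all 17338 genes, 1448 were lower and 1407 higher at that limma p, 16.5% in either direction. Egln3, an oxygen-sensing prolyl hydroxylase that hypoxia induces, was at 8874, 6593 and 6315 in Tet2-WT, 3295 and 814 in Tet2-Mut, and 917 and 3755 in Tet2-KO (log2 difference -2.04, limma adjusted p = 0.134). Ankrd37, another hypoxia target, was at 1565, 1152 and 1211 in Tet2-WT and at 936, 205, 208.5 and 599 in Tet2-Mut 1, Tet2-Mut 2, Tet2-KO 1 and Tet2-KO 2. Tet2-Mut 2 and Tet2-KO 1 were again the lowest clones here, and in 12 of the 25 genes of the list. Hk1, a hexokinase, had more even clones, at 6160, 5130 and 4436 in Tet2-WT, 2350 and 2219 in Tet2-Mut, and 2530 and 3440 in Tet2-KO (limma adjusted p = 0.0716). Vegfa, an angiogenic factor, was at 7040, 6120 and 5783 in Tet2-WT and between 3511 and 4731 in the clones (log2 difference -0.62). Within Tet2-WT these genes also varied: in Egln3, Ankrd37 and Hk1, Tet2-WT 1 was the highest of the 3 cultures.

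Of 14 neural genes tested, 6 were above the Tet2-WT range in all 4 clones and 0 were below it (42.9% and 0%, against 8.83% and 8.91% of all genes), with a median log2 difference of 0.59. They included Insm1 and Pax6 above. Nes, an intermediate filament protein of neural progenitors, was at 1490, 1686 and 1317 in Tet2-WT, 2646 and 2575 in Tet2-Mut, and 7874 and 4416 in Tet2-KO. Formative genes mark the step from naive towards primed pluripotency. Of 23 tested, 6 were higher and 0 lower without overlap (26.1% and 0%, against the same shares of all genes), and 5 had a negative pooled difference. Their median was 0.37 and -0.18 in Tet2-Mut 1 and 2, and 0.75 and 0.56 in Tet2-KO 1 and 2, so Tet2-Mut 2 did not share the direction. Among the 6 was Sox3, a SoxB1 factor of neural progenitors, at 143, 115 and 135 in Tet2-WT, 284 and 219 in Tet2-Mut, and 997 and 526 in Tet2-KO (log2 difference 1.70). In Nes and Sox3 both genotypes lay above Tet2-WT and the Tet2-KO clones were the higher ones.

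Fibroblast markers had a positive pooled log2 difference in 25 of 26 genes. Of the 26 tested, 11 were higher in all 4 clones without overlap and 0 were lower (42.3% and 0%, against 8.83% and 8.91% of all genes), and the median log2 difference was 0.91. None of the 26 was at 0 in any library. Tet2-KO 1 had the highest median, 1.58, followed by Tet2-KO 2 at 0.89, Tet2-Mut 1 at 0.70 and Tet2-Mut 2 at 0.23. Col1a1, the main fibroblast collagen, was at 782, 693 and 733 in Tet2-WT, 1137 and 689 in Tet2-Mut, and 2123 and 1444 in Tet2-KO. Limma called 0 of the 26, and 16 were at an unadjusted p under 0.05, all higher. Of all 17338 genes, 1407 were higher and 1448 lower at that limma p, 16.5% in either direction. The part of feeder or fibroblast-like cells in the higher genes was not tested.

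Pluripotency genes had a median near 0. Of 28 naive and core genes, 6 were lower and 2 higher without overlap (21.4% and 7.14%, against 8.91% and 8.83% of all genes), with a median of 0.03. The lower ones were Prdm14, Tfcp2l1, Tbx3, Klf2, Tdgf1 and Esrrb, and the higher ones Sall4 and Fbxo15. Tbx3, a T-box factor of the LIF circuit, was at 5245, 5231 and 5645 in Tet2-WT, 2498 and 2265 in Tet2-Mut, and 2523 and 3401 in Tet2-KO (log2 difference -1.02, limma adjusted p = 0.0579). Prdm14, a repressor of differentiation, was at 1123, 1182 and 1125 in Tet2-WT and at 821, 707, 566 and 913 in Tet2-Mut 1, Tet2-Mut 2, Tet2-KO 1 and Tet2-KO 2. Smad6, an inhibitory Smad of BMP signalling, was at 849, 789 and 831 in Tet2-WT, 269 and 384 in Tet2-Mut, and 475 and 440.4 in Tet2-KO (log2 difference -1.10, limma adjusted p = 0.0716). Of 20 trophectoderm markers, 0 were higher and 1, Elf5, was lower without overlap (0% and 5%, against 8.83% and 8.91% of all genes). Of 16 endoderm markers, 0 were higher and 0 lower. At those shares lists of this size hold few such genes, so a count of 0 does not show that the markers were unchanged. With separate genotype means limma called 2 of the 16 endoderm genes, both higher, and 1 of the 20 trophectoderm genes, which was lower. That fit called 1.72% of all genes as higher and 2.27% as lower. Of these called endoderm and trophectoderm genes, 0 had every clone outside the Tet2-WT range.

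**Figure D5:**
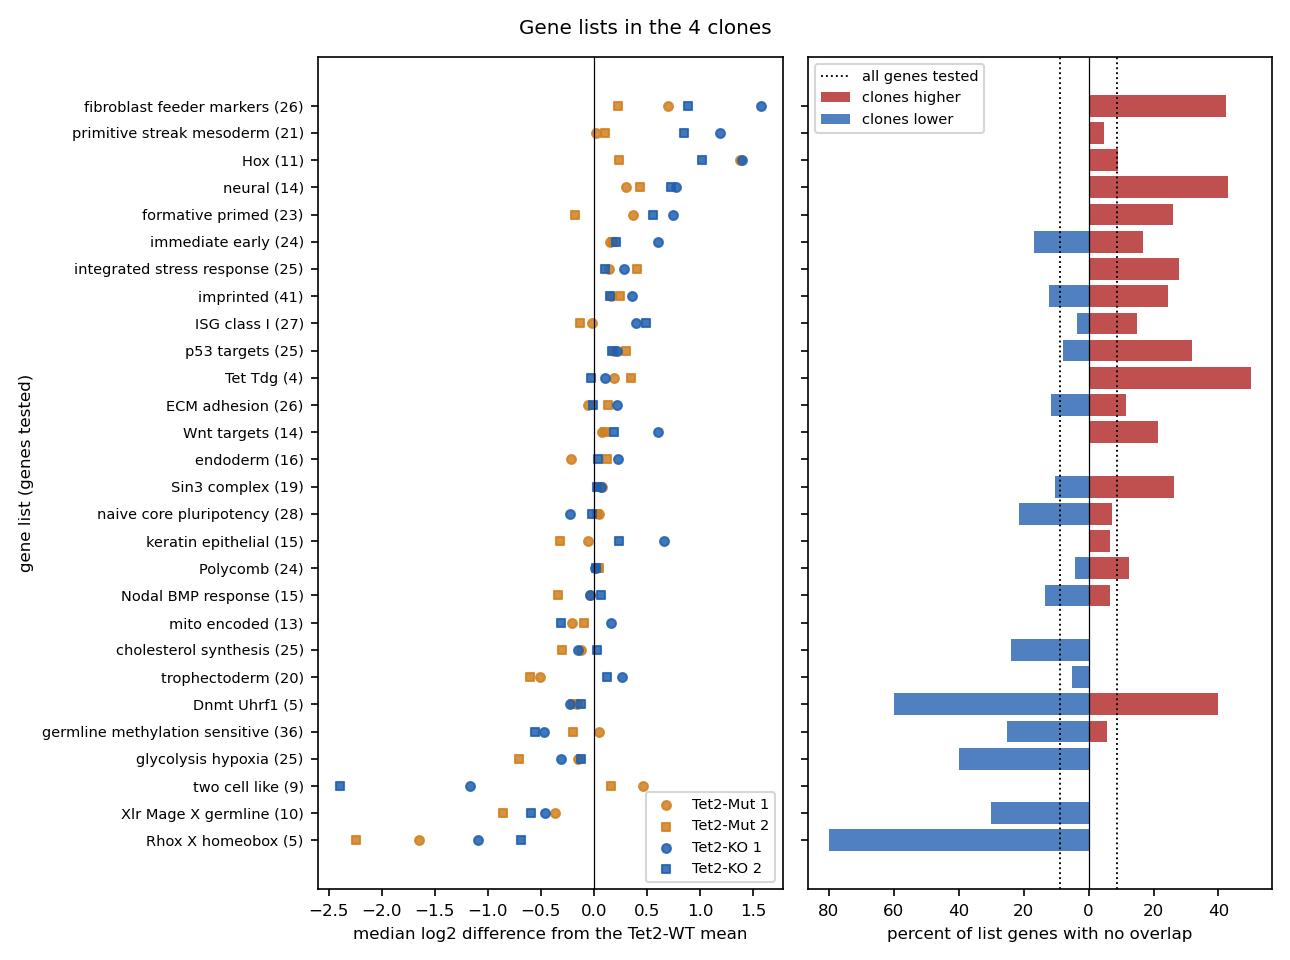
Left, the median log2 difference of each gene list from Tet2-WT (x axis), one point per clone; right, the percent of each list's genes with all 4 clones above or below the Tet2-WT range, with dotted lines at 8.83% and 8.91% for all genes. Fibroblast markers are at 0.23 to 1.58, and glycolysis and hypoxia genes are at -0.12 to -0.71.

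Among imprinted genes, 10 of 41 were higher and 5 lower without overlap (24.4% and 12.2%, against 8.83% and 8.91% of all genes). Higher in every clone were 3 genes of the Dlk1-Meg3 cluster, the maternally expressed RNAs Meg3 and Rian and the paternally expressed Dlk1. Meg3 was at 9887, 9651 and 9479.5 in Tet2-WT, 13080 and 16415 in Tet2-Mut, and 18174 and 16118 in Tet2-KO (log2 difference 0.71, limma adjusted p = 0.0626). Rian was at 10556, 11158 and 10832 in Tet2-WT, 14135 and 17967 in Tet2-Mut, and 18693 and 18888 in Tet2-KO (log2 difference 0.67, limma adjusted p = 0.0710). In both, Tet2-Mut 1 was the clone nearest to Tet2-WT, and without it the pooled test called both (limma adjusted p of 0.0263 for Meg3 and 0.0207 for Rian). Dlk1, a Notch-related membrane protein, was at 98.2, 102 and 113 in Tet2-WT, 198 and 266 in Tet2-Mut, and 356 and 172 in Tet2-KO (limma adjusted p = 0.0998). Mest, also expressed from the paternal copy, was higher as well, at 2691, 2840 and 2961 in Tet2-WT and between 3698 and 5079 in the clones.

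Differences in stress genes were small. Of 25 p53 targets, 8 were higher and 2 lower without overlap (32% and 8%, against 8.83% and 8.91% of all genes), with a median of 0.18; the lower share is near that of all genes. Zmat3, an RNA-binding p53 target, was at 7240, 7105 and 7419 in Tet2-WT and at 8807, 9643, 8596 and 8791 in Tet2-Mut 1, Tet2-Mut 2, Tet2-KO 1 and Tet2-KO 2 (log2 difference 0.30, limma adjusted p = 0.0806). In the list for the integrated stress response, 7 of 25 lay above the Tet2-WT range in every clone (28%) and 0 below it (median 0.27), among them Atf4, its central transcription factor, at 12193, 13725 and 13948 in Tet2-WT and between 15829 and 23061 in the clones. Cholesterol synthesis genes went the other way, with 6 of 25 lower (24%) and 0 higher without overlap (median -0.16).

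Of the enzymes that remove DNA methylation, Tet1 had no common direction, at 27345, 26939 and 29189 in Tet2-WT, 31464 and 37431 in Tet2-Mut, and 23681 and 22462 in Tet2-KO. Its pooled log2 difference was 0.02 (limma adjusted p = 0.970), with the Tet2-Mut clones above and the Tet2-KO clones below the Tet2-WT range, and its sign changed under other settings, to -0.12 without Tet2-Mut 2. Tet3 was higher in every clone, at 459, 437 and 429.6 in Tet2-WT, 509 and 698 in Tet2-Mut, and 789 and 596 in Tet2-KO (log2 difference 0.53, limma adjusted p = 0.154). Tdg, the glycosylase that excises oxidized cytosines, was at 4225, 4303 and 4211 in Tet2-WT and between 4526 and 5716 in the clones.

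Of the methyltransferase genes, the de novo enzymes and their cofactor split. Dnmt3a was at 8279.5, 8916 and 9582 in Tet2-WT, 12296 and 14903 in Tet2-Mut, and 12846 and 10455 in Tet2-KO (log2 difference 0.49, limma adjusted p = 0.107, and 0.0467 without Tet2-KO 2). Dnmt3b was at 20723, 21181 and 21243 in Tet2-WT, 28625 and 21915 in Tet2-Mut, and 54040 and 39689 in Tet2-KO. Tet2-Mut 2 was barely above Tet2-WT in Dnmt3b, and Tet2-KO exceeded Tet2-Mut (log2 difference 0.89, limma adjusted p = 0.0111). Dnmt3l, the catalytically inactive cofactor of both, was lower, at 15496, 15289 and 16020.3 in Tet2-WT, 11232.5 and 7714 in Tet2-Mut, and 11791 and 9823 in Tet2-KO (log2 difference -0.64, limma adjusted p = 0.0910, and 0.0244 without Tet2-Mut 2); it overlaps Aire. Dnmt1, the maintenance enzyme, and Uhrf1, which brings it to replicating DNA, were lower in all 4 clones by little, with log2 differences of -0.19 and -0.24 (limma adjusted p of 0.149 and 0.114).

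Sin3 complex and Polycomb genes had medians near 0. Of 19 genes of the Sin3 complex, 5 were higher and 2 lower without overlap (26.3% and 10.5%, against 8.83% and 8.91% of all genes), and the median was 0.06. Ogt was at 18873, 18322 and 16695 in Tet2-WT, 14333 and 16120 in Tet2-Mut, and 13190 and 14824 in Tet2-KO (log2 difference -0.30, limma adjusted p = 0.129). Of 24 Polycomb genes, 3 were higher and 1 was lower without overlap (12.5% and 4.17%), near the shares of all genes. The lower one was Suz12, a core subunit of PRC2, at 16359, 15821 and 15477 in Tet2-WT and between 10946 and 12969 in the clones (log2 difference -0.39, limma adjusted p = 0.0716).

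Finally, Tet2-KO and Tet2-Mut were compared within the genes that all 4 clones shared. Over all genes 1074 differed between the genotypes (6.19%, limma with separate genotype means), 458 higher in Tet2-KO (2.64%) and 616 lower (3.55%). Among the 3076 genes without overlap it was 82 (2.67%), among the 139 with every clone at least 2-fold from Tet2-WT it was 2 (1.44%), and among the 625 past the test with separate genotype means it was 79 (12.6%). A gene without overlap has both genotypes on the same side of Tet2-WT, so a low share follows in part from how it was chosen. Shares per chromosome were taken over the 13345 genes with a known chromosome and a mean of at least 50 on the higher side. On chromosome 8, 54.4% of these genes differed between the genotypes, against 7.69% over all chromosomes. There, 3.01% and 5.48% were higher and lower without overlap, against 10.2% and 10% over all chromosomes. On chromosome 6 the share higher without overlap was 18.4% and on the X chromosome it was 15.4%, where the clones' chromosome medians reached at most 0.06 and 0.08.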

How the data were processed

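RNA-seq values were analysed for 7 mouse ESC libraries; 3 bisulfite and 18 CUT&Tag samples were not analysed here. The deposited table lists 17342 genes, each value being a gene count that the authors divided by a DESeq2 size factor, a linear signal called the normalized count here. The submitters' processing notes name the mm10 build and, among other tools, DESeq2, featureCounts, STAR 2.7.3a and Trim Galore 0.6.5. Annotation and strand setting are not given in the sources used here. Dividing by 1 step per library turned 100% of values into whole reads (tolerance 0.01 reads), 41.9 M to 58.5 M per library and at least 71 per gene over the libraries. A floor of 3 reads equals 2.5 to 3.54 normalized counts.

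The 17338 genes that reached 10 in 2 or more libraries were tested with limma 3.58.1 (R 4.3.3) after adding 1 and taking log2, which understates the change of low genes. The main fit had 2 sides, the 4 clones and Tet2-WT, with Benjamini-Hochberg adjustment over all genes at 0.05. Just outside the filter, Rnf150 had a second highest value of 9.99; just inside, A330074K22Rik had 10.34. A second model with a mean per genotype gave Tet2-KO minus Tet2-Mut and the average of both against Tet2-WT. P-values measure the spread between these cultures and clones. Every pair of libraries differed beyond sampling noise (lowest chi-square per degree of freedom, 7.19). Deviations of same-numbered libraries had no common sign, with correlations of -0.17 (Tet2-Mut 1 and Tet2-KO 1) to 0.20 (Tet2-WT 1 and Tet2-Mut 1). In a group of 2 libraries the deviations mirror each other, so these correlations cannot exclude a shared batch.

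The samples compared and the 29 gene lists were chosen with earlier results of these data known. Genes to be named were Tet2, up to 15 genes each way past the test by the shift of the nearest clone, up to 4 called members per list, and the TET and DNMT lists. As 4 genes passed, the ranking of 20 each way and the list members given as examples were chosen after their values were seen. Symbols matched RefSeq GRCm38.p6 for 16110 genes (92.9%). Promoter windows were found for 69.8% of tested genes, so a comparison of CpG content between sets was void, and only single windows are given. The fit was tested on simulated counts of 17302 genes for the 4 clones against Tet2-WT. It found 30% of the genes simulated at 1.5-fold, 70% at 2-fold and 92% at 4-fold, and 5.23% of its calls were false. The simulation drew genes and libraries independently, with no difference between genotypes and no shift of whole chromosomes. These shares therefore cannot be read as the power or error rate of the fit on the real libraries. Alternatives were other pseudocounts, filters, scalings, priors and models, edgeR 4.0.16 and DESeq2 1.42.0 on recovered reads, libraries left out, and chromosomes 8, 14 and Y left out. The last, the crossed block and every alternative of the second model's average against Tet2-WT were added after the data were seen.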

Additional observations from a re-analysis of the deposited data

Results flagged for a closer look

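Among 51 genes examined for a clone far from the others or for a difference between Tet2-KO and Tet2-Mut, 11 values were picked out. In 6 genes 1 clone stood apart from the other 3 by more than the 95% limit for the gap of an extreme value among 4, which chance passes in about 1 in 20 groups. They were Tet2-Mut 2 in Cemip (106 normalized counts), Ptger2 (90.7) and Platr15 (1.93, below the floor of 3 reads), Tet2-KO 2 in Pld4 (76.5) and Pax6 (271), and Tet2-KO 1 in Inhba (743). Ptger2 lies on chromosome 14, whose genes had a median log2 difference from Tet2-WT of 0.51 in Tet2-Mut 2 alone. The part of that shift in its value was not tested. Pax6 was the one case in which the distant clone was nearer to Tet2-WT than the others.

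In 5 genes Tet2-KO and Tet2-Mut differed by limma's test of the difference itself, each given as the log2 difference of Tet2-KO from Tet2-Mut. Tet2 differed by -1.23, the 2 Tet2-KO clones being the lower ones, and Tet1 by -0.57. H19 differed by 1.72, Fat2 by 1.79 and Dnmt3b by 0.89, with both Tet2-KO clones above both Tet2-Mut clones in each.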

How the results depend on the processing

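Of 17338 genes, 4 passed the pooled limma test. The count stayed at 4 with a pseudocount of 0.5, no filter, a mean of at least 50, a robust prior or edgeR, and was 5 with upper quartile scaling, Apela being added. A pseudocount of 10 gave 15, all without overlap, 5 of them in the lists. Quantile normalization left 1 (Tns1), with 0 list members in limma (167 at an unadjusted p under 0.05). Separate genotype means gave 692, with 625 without overlap and 74 in the lists, and DESeq2 gave 1053, 1019 and 90. A prior that ignores the mean gave 0 in limma (2544 at an unadjusted p under 0.05; 0 of the 692 remained, with 3229 unadjusted). Without chromosomes 8, 14 and Y the counts were 20, 20 and 6. With the replicate number as a block, limma gave 0 genes (1798 at an unadjusted p under 0.05), 0 without overlap and 0 in the lists, and 467 for Tet2-KO against Tet2-Mut; the crossed pairing gave 0, 0 and 0 (2114 unadjusted). In the crossed pairing, deviations of Tet2-WT 1, Tet2-Mut 1 and Tet2-KO 2 had correlations of 0.16 to 0.20. Those of Tet2-WT 2, Tet2-Mut 2 and Tet2-KO 1 were at -0.07 to 0.17. A block takes degrees of freedom from the fit, and whether libraries share a batch was not tested. Leaving out 1 library gave 0 to 366 genes past the pooled test, 0 to 366 without overlap and 0 to 42 in the lists. It gave 3767 to 4738 genes without overlap, where fewer libraries have to be cleared, 530 to 2679 for Tet2-KO against Tet2-Mut, and 1 to 1861 with separate genotype means, 1 to 1314 of them without overlap. With separate genotype means, DESeq2 gave 1710, of which 1315 were without overlap. The 1074 genes of Tet2-KO against Tet2-Mut were 0 when only the 4 clone libraries were used (limma, 2357 at an unadjusted p under 0.05), with 2 residual degrees of freedom, and 480 without chromosomes 8, 14 and Y. Over 21 settings, the 4 genes kept their direction, with log2 differences of 1.30 to 1.47 for Insm1, 0.57 to 0.67 for Cdk2ap1, -1.35 to -1.21 for Tns1 and -1.32 to -1.16 for Tuba3a. Tns1 was called in 14 of these settings and the other 3 in 12. Tet1, near 0, turned to -0.067 with quantile normalization, -0.006 without Tet2-WT 2, -0.04 without Tet2-Mut 1 and -0.12 without Tet2-Mut 2, the libraries left out giving -0.12 to 0.125. Other scalings moved the median of all genes by -0.009 and 0.003. Except where named, the cause of a change with the setting was not tested. A floor of 3 reads, 2.5 to 3.54 normalized counts, limits what can be read from the lowest values, such as Platr15 in Tet2-Mut 2.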

Other observations

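Some lists differed between the genotypes rather than being shared. Primitive streak and mesoderm genes had medians of 0.02 and 0.10 in Tet2-Mut 1 and 2 and of 1.19 and 0.85 in Tet2-KO 1 and 2. Without overlap, 1 of 21 was higher in all 4 clones (4.76%, against 8.83% of all genes). That gene was Evx1, a homeobox factor of the posterior streak, at 13.3, 16.9 and 14.2 normalized counts in Tet2-WT, 36.0 and 36.7 in Tet2-Mut, and 75.4 and 38.3 in Tet2-KO (log2 difference 1.52, limma adjusted p = 0.112). Genes of the rare two-cell-like state had medians of 0.46 and 0.16 in Tet2-Mut and -1.17 and -2.40 in Tet2-KO. Of these 9, 0 had all 4 clones on one side of the Tet2-WT range, against 17.7% of all genes. The differences between the genotypes' list medians were not tested.

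Of 26 extracellular matrix and adhesion genes, 3 were higher and 3 lower in all 4 clones without overlap (11.5% each), near the 8.83% and 8.91% of all genes. Tnc, tenascin C of the extracellular matrix, was at 261, 300.3 and 259.6 in Tet2-WT, 556 and 446 in Tet2-Mut, and 1417 and 779.5 in Tet2-KO (limma adjusted p = 0.116). Sdc4, a heparan sulfate proteoglycan, was lower, at 4001, 3720.5 and 3378 in Tet2-WT and between 2174 and 2755 in the clones (log2 difference -0.53, limma adjusted p = 0.0799). Of 14 Wnt targets, 3 were higher and 0 lower without overlap (21.4% and 0%, against 8.83% and 8.91% of all genes). Ccnd1, cyclin D1, was 1 of them, at 5726, 6102 and 6411 in Tet2-WT and between 7329 and 10892 in the clones (log2 difference 0.54, limma adjusted p = 0.106).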
